A study of Rattus norvegicus with 6 samples.

Results

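Star and the genes that handle cholesterol and steroids around it were followed in cultured rat Schwann cells in which the kinase Raf could be switched on. The members are 10 genes: Star, Stard4, Tspo, Cyp11a1, Fdx1, Fdxr, Srd5a1, Hsd11b1, Abca1 and Apoe. Every probe set annotated with 1 of these symbols was taken, which gave 16 of the 31099 probe sets on the array and 8 of the 10 genes, while Fdxr and Srd5a1 were not analysed here. The genes were selected on their known roles and with the tamoxifen and vehicle levels of these same arrays in view, above all the fall of Star, so their differences are a description and carry no p-values.

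The cells were primary Schwann cells of rat sciatic nerve carrying RafER, an inducible allele that joins Raf to a piece of the estrogen receptor that binds hormone, so that tamoxifen turns the kinase on. In 3 experiments, which the submitters call independent, cells held in a minimal medium received ethanol as the vehicle or tamoxifen for 24 h. Both groups therefore carry RafER, and each has 3 arrays. The promoter that drives RafER, the number of clones and the dose are not given in the sources used here. With no arrays of cells lacking RafER analysed here, effects of tamoxifen and of Raf cannot be told apart. The source labels speak of treated rats, whereas the design text describes treatment in culture, which was followed. All p-values measure the spread between these arrays.

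Steroid synthesis starts when cholesterol reaches the inner mitochondrial membrane. The StAR protein carries out that delivery, and the side-chain cleavage enzyme encoded by Cyp11a1 then converts cholesterol to pregnenolone with electrons passed by ferredoxin reductase (Fdxr) and ferredoxin (Fdx1). Peripheral nerve is known to make and modify steroids such as progesterone locally, and Schwann cells also handle much cholesterol because myelin is rich in it.

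The transcript level of Star fell after tamoxifen, that of Hsd11b1 rose, and 6 of the 8 member genes did not pass the threshold by their brightest probe set. The threshold was an adjusted p of 0.05 in limma, with Benjamini-Hochberg adjustment over 31042 probe sets. By that rule 1 member gene was lower and 1 higher, against 17.3% lower and 13.9% higher, 31.2% in all, among 14217 genes. Among the 16 member probe sets, 2 were lower, 2 higher and 12 not past the threshold, where 12.9% of all probe sets were lower and 11.5% higher (24.4% in all). For 4 of the 16 the groups were fully separate, against 42.4% of all probe sets. The median difference of the 8 genes was -0.0048 log2 units, and that of all genes was 0.012. When the experiment was entered as a block, 2 member genes were lower and 2 higher, the added ones being Apoe and Stard4. Without both arrays of experiment 2 no member gene was higher, with Hsd11b1 at 1.51 ± 0.39 against 1.50 ± 0.26 on all 6 arrays. The shares among all genes are those of the fit on all 6 arrays without the block. They were not taken for the block or with arrays left out, so the last counts stand without a share beside them.

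On the arrays themselves, correlations over probe sets were 0.984 to 0.995 within a group and 0.934 to 0.966 between groups. Vehicle array 1 stood apart by a weak 5′ signal, with a mean 3′ minus 5′ difference of 0.84 log2 units over 3 control transcripts against 0.16 to 0.27 on the others. Of 10 Schwann cell markers 7 were measured. Their mean log2 level was 10.98 to 11.24 in vehicle and 9.92 to 10.13 in tamoxifen, with Gfap the dimmest of them at group means of 7.29 and 7.06. None rose, also at an unadjusted p of 0.05, and 4 fell in limma. Their summed linear signal was 27794 to 35567 in vehicle and 11044 to 15569 in tamoxifen, and the part of this shift in the member results was not tested. Macrophage markers (10 of 10 measured) summed to 330 to 353 in vehicle and 335 to 358 in tamoxifen, and endothelial markers (5 of 6) to 121 to 125 and 120 to 133. Adipocyte markers (5 of 5) summed to 117 to 137 and 128 to 135. For these lists 0 genes passed in limma in either direction. At an unadjusted p of 0.05, 2 macrophage markers were higher and none of the other 2 lists' markers differed. Of 9 fibroblast markers 2 rose and 3 fell, with summed signals of 28412 to 31359 and 20790 to 26688, and their group means ran from 3.43 (Lum) to 13.58 (Postn), with Col1a1 at 13.15 in vehicle and 11.92 in tamoxifen. In such bulk RNA, fewer cells of a type and less RNA per cell cannot be told apart.

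Star, whose product moves cholesterol into the mitochondrion, was measured by 2 probe sets. The first (1368406_at) read 11.12, 10.88 and 10.16 log2 units on the vehicle arrays of experiments 1, 2 and 3, and 5.70, 5.36 and 5.70 on the tamoxifen arrays. The second (1387174_a_at) read 9.84, 10.44 and 9.64 in vehicle and 4.72, 5.22 and 5.17 in tamoxifen. All vehicle values lay more than 4 log2 units above all tamoxifen values of the same probe set. Star fell by 5.13 ± 0.25 log2 units (SE, n = 3 arrays per group) by the first probe set and fell by 4.93 ± 0.23 by the second. By its brighter probe set it had the most negative difference of the 14217 genes. Within the experiments the changes were -5.42, -5.52 and -4.46 by the first probe set and -5.11, -5.21 and -4.47 by the second, so experiment 3, with the lowest vehicle level, had the smallest fall by both. Leaving out any 1 array gave -5.41 to -4.93 and -5.10 to -4.70. Without the vehicle array of weaker 5′ signal the difference was -4.93 by the first. The tamoxifen means of 5.59 ± 0.19 and 5.04 ± 0.27 (SD) are low on this array, on which the lower quartile of the arrays was 4.78 to 4.85, and the file holds no detection calls. The tamoxifen level could therefore not be told from background, and the sizes given are differences of the deposited values.

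**Figure D1:**
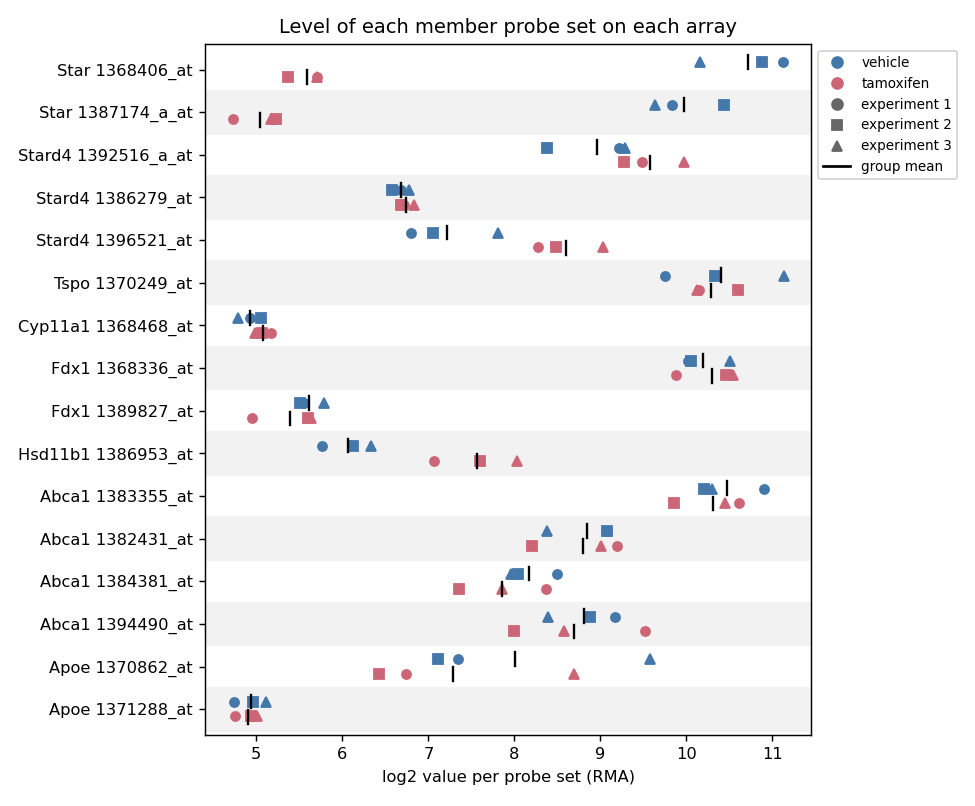
Log2 value (x axis) of each of the 16 member probe sets (rows) on the 3 vehicle arrays (blue) and the 3 tamoxifen arrays (red), with the symbol shape giving the experiment and a black bar the group mean. The 2 Star rows are split by about 5 log2 units, 1 Stard4 row and Hsd11b1 are shifted to the right in tamoxifen, and in the other 12 rows the groups overlap.

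Cyp11a1 encodes the enzyme that acts on the cholesterol StAR delivers. Its probe set read 4.92, 5.05 and 4.79 in vehicle and 5.17, 5.06 and 4.98 in tamoxifen, all close to that lower quartile. The groups overlapped, with a difference of 0.15 ± 0.10, so a low level of Cyp11a1 could not be told from background in either group. Fdx1, the electron donor of that enzyme, read 10.02, 10.05 and 10.51 in vehicle and 9.88, 10.47 and 10.55 in tamoxifen by its brighter probe set, with a difference of 0.10 ± 0.22. The dimmer one, with group means of 5.61 ± 0.15 and 5.39 ± 0.39 (SD), gave -0.22 ± 0.20. Fdx1 was thus bright in both groups by 1 probe set, and neither probe set passed the threshold.

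Upstream sequence of these partners was at hand in RefSeq (GRCr8) for Cyp11a1 and Fdx1, and the pair is shown because, of the 6 members with a promoter in the table, these were the 2 whose stretch held the letters AGGTCA. The stretches of Abca1, Apoe, Fdxr and Srd5a1 did not hold them. Each line gives the 250 bases before the start, read 5′ to 3′ on the gene's strand, with the letters AGGTCA in capitals. These letters are a half-site of nuclear receptors in general.
Cyp11a1 (chr8:67318415-67318664, plus strand): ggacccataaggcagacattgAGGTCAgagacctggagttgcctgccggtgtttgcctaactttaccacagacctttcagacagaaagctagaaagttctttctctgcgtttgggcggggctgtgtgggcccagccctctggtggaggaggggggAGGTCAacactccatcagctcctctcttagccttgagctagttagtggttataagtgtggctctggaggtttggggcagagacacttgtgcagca
Fdx1 (chr8:61183646-61183895, minus strand): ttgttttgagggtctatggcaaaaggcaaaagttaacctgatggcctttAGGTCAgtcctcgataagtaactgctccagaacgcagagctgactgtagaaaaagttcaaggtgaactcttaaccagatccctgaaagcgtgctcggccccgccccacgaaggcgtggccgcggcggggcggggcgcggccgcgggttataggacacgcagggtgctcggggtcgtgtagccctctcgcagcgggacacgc
The Cyp11a1 stretch held AGGTCA at -229 to -224 and at -95 to -90 from the start, and the Fdx1 stretch held it at -201 to -196. On either strand 14.1% of 33469 promoter stretches of that length held these letters. The longer form AAGGTCA, the type of half-site of the nuclear receptor SF-1, contains these letters (3.99% of all stretches). It was searched on both strands and was in neither stretch. TGACG, the core of the cAMP response element (18.2%), the AP-1 element TGAGTCA (4.05%) and TATAAA (12.9%) were searched likewise and were in neither. The Abca1 stretch held TATAAA. Such a match is a description of the letters and not of binding.

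Nr5a1, the gene of SF-1 and the master regulator of steroid-producing glands, had means of 5.05 ± 0.03 in vehicle and 4.89 ± 0.06 in tamoxifen (SD, n = 3 arrays), a difference of -0.16 ± 0.08 (SE) that did not pass (limma, adjusted p = 0.212). Markers of steroid-producing gland cells as a list (7 of 10 measured) had a mean log2 level of 4.64 to 4.71 in vehicle and 4.73 to 4.79 in tamoxifen and summed linear signals of 209 to 218 and 216 to 230. None of them passed in limma, and 1 was higher at an unadjusted p of 0.05. Their group means ran from 3.66 (Lhcgr) to 6.05 (Insl3). The level of Nr5a1 and the mean level of the list were close to the lower quartile of the arrays. That quartile was itself 4.78 to 4.80 on the vehicle arrays and 4.83 to 4.85 on the tamoxifen arrays. A low level could therefore not be told from background in either group.

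Stard4 encodes a soluble relative of StAR that shares its lipid-binding START domain and carries cholesterol between membranes. Its 3 probe sets did not agree. The brightest (1392516_a_at) read 9.22, 8.38 and 9.28 in vehicle and 9.48, 9.28 and 9.97 in tamoxifen, so that the groups overlapped, and gave 0.62 ± 0.28. With the experiment as a block the same difference had an SE of 0.14 and passed, and the mean of the 3 probe sets, 0.69 ± 0.19, also passed. A second (1396521_at) read 6.80, 7.05 and 7.81 in vehicle and 8.28, 8.49 and 9.03 in tamoxifen, without overlap, and rose by 1.38 ± 0.30, 2.60-fold. That call was lost without vehicle array 2 (1.29), tamoxifen array 2 (1.44) or tamoxifen array 3 (1.16), and without both arrays of experiment 2 (1.35). The dimmest (1386279_at) gave 0.07 ± 0.09. All 3 were higher after tamoxifen in each of the 3 experiments, but for the dimmest by only 0.03 to 0.11.

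Tspo encodes a cholesterol-binding protein of the outer mitochondrial membrane that has long been studied in steroid-producing and glial cells. It read 9.75, 10.34 and 11.13 in vehicle and 10.15, 10.60 and 10.13 in tamoxifen. The groups overlapped and the difference was -0.11 ± 0.34. The experiments did not move the same way: the change was 0.40 and 0.26 in experiments 1 and 2 and -1.004 in experiment 3, and without vehicle array 3 the difference was 0.25. Without both arrays of experiment 3 it was 0.33 ± 0.26.

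Hsd11b1 encodes the reductase that regenerates active glucocorticoid from its inert 11-keto form inside cells. It read 5.76, 6.12 and 6.33 in vehicle and 7.07, 7.60 and 8.03 in tamoxifen. The lowest tamoxifen array was above the highest vehicle array, and the gene rose by 1.50 ± 0.26, 2.82-fold. The vehicle mean of 6.07 lay below the array medians of 6.30 to 6.37. Without detection calls, a low vehicle level could not be told from background, so the fold is a ratio of the deposited values. The change was 1.31, 1.48 and 1.71 within the experiments, and the SE was 0.11 with the experiment as a block. Leaving out any 1 array gave 1.27 to 1.75 and kept the call, which was lost without both arrays of experiment 2 (1.51 ± 0.39).

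**Figure D2:**
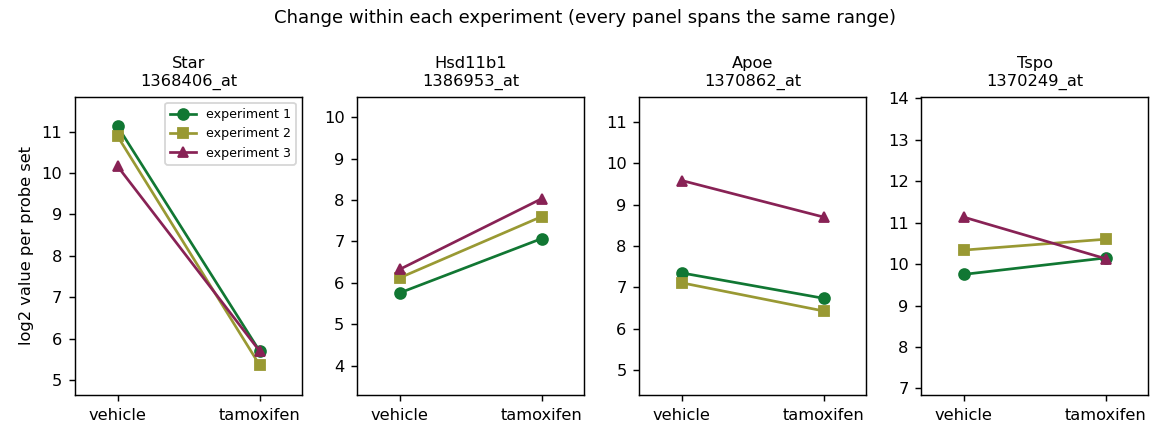
Log2 value (y axis) of the brightest probe set of Star, Hsd11b1, Apoe and Tspo in vehicle and tamoxifen, with a line joining the 2 arrays of each experiment and the same span of log2 units in every panel. Star falls and Hsd11b1 rises in all 3 experiments, the Apoe lines run parallel with experiment 3 at the top, and the Tspo lines cross.

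Abca1 encodes the pump that exports cholesterol to lipid-poor apolipoproteins, and Apoe the apolipoprotein by which glia and macrophages ship lipid. The brightest of 4 Abca1 probe sets read 10.91, 10.20 and 10.31 in vehicle and 10.62, 9.86 and 10.45 in tamoxifen. The 4 differences ran from -0.31 ± 0.27 to -0.05 ± 0.30, all with overlapping groups, and that of the probe set 1382431_at turned positive with quantile normalization (0.014) or cyclic loess (0.051). In experiment 2 all 4 were lower after tamoxifen, with changes of -0.88 to -0.34.

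Apoe stood out by its spread between experiments. Its brighter probe set read 7.35, 7.11 and 9.58 in vehicle and 6.74, 6.43 and 8.70 in tamoxifen, so that experiment 3 was about 2 log2 units above the other experiments in both groups. The SD of the vehicle arrays was 1.36, larger than for 99.8% of genes, where the median gene had 0.14. The difference of -0.73 ± 0.82 did not pass. Within the experiments the change was -0.61, -0.68 and -0.88, and with the experiment as a block the same difference had an SE of 0.10 and passed. The dimmer probe set, at 4.94 ± 0.18 and 4.90 ± 0.13 (SD), gave -0.04 ± 0.13. Vehicle SDs of Star, Stard4 and Tspo (0.50, 0.50 and 0.69) were also above those of 95.1% or more of genes.

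**Figure D3:**
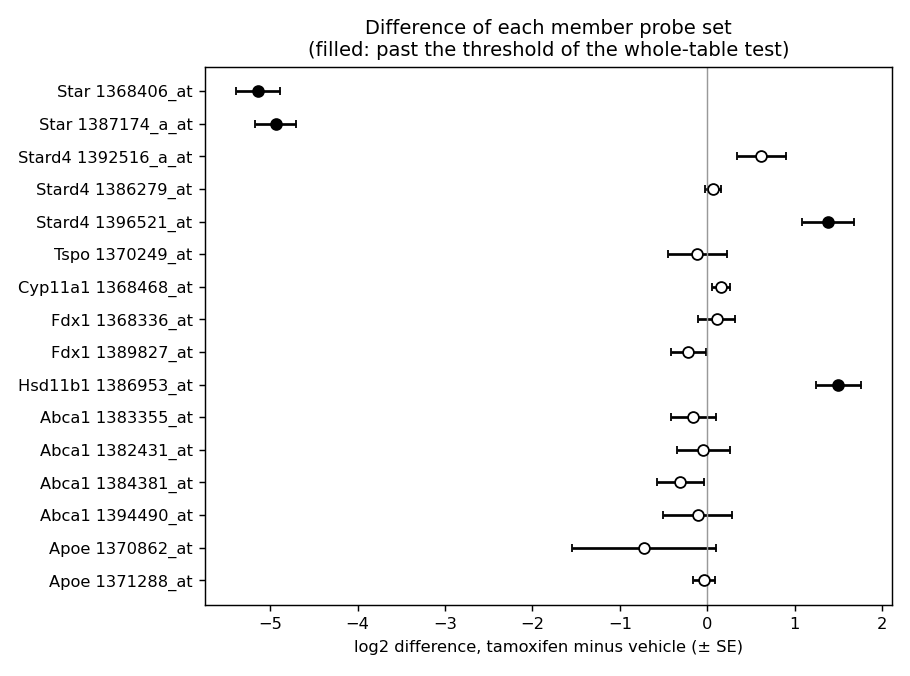
Log2 difference, tamoxifen minus vehicle (x axis), of each member probe set with its model SE as a bar. Filled points passed the threshold of the test over all probe sets: the 2 Star probe sets at -5.13 and -4.93, 1 Stard4 probe set at 1.38 and Hsd11b1 at 1.50.

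The genes whose profile over the 6 arrays was nearest to that of Star were Sema4f, a semaphorin, Cxcl12, a chemokine, Hmcn1, a matrix protein, Tgfa, an EGF receptor ligand, and Chrdl2, a BMP antagonist. Likeness was the Euclidean distance between log2 values centred on each gene's vehicle mean, and it was 1.71, 1.91, 2.81, 3.16 and 3.35 log2 units for these genes against a median of 8.95 over 13975 genes. Their differences were -4.53, -4.98, -3.82, -3.38 and -3.29. A small distance to Star required a large fall, so these genes were chosen for their pattern.

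The other enzymes of steroid synthesis and breakdown went both ways, and none of the gland enzymes passed. Of 37 listed, 32 were measured: 2 rose, 6 fell and 24 did not pass, with a median of 0.0071. Among all genes 17.3% were lower and 13.9% higher, 31.2% in all. The counts of this list and of the lists that follow are a description beside those shares. Such shares were not taken for the block or for fits with arrays left out, so list counts from those fits stand without them. The lists, like the members, were chosen with earlier results of these data known. Adjusted p-values of genes named from the lists come from the fit over all probe sets and describe these genes. Sts, the sulfatase that frees steroids from their sulfates, fell by 1.77 ± 0.15 (limma, adjusted p = 0.000696). Cyb5a, an electron donor to several cytochrome P450 enzymes, fell by 1.10 ± 0.18 (limma, adjusted p = 0.00596), and Hsd17b4, a peroxisomal enzyme also active on fatty acids, fell by 1.01 ± 0.12 (limma, adjusted p = 0.00233). Cyp17a1, Cyp19a1, Cyp21a1, Cyp11b1 and Hsd3b1, which make the sex and adrenal steroids, had group means of 3.82 to 5.80, low on this array. A low level of these 5 genes could therefore not be told from background. These 5 were singled out for their known role, after their values were seen. Other enzymes of the list that did not pass were low too, such as Sult1e1 (group means 3.74 and 3.53), Cyp7b1 (3.67 and 3.67) and Hsd3b5 (4.03 and 4.03). Others, such as Hsd17b10 (10.20 and 10.36), were bright. For the low ones, not passing does not show a lack of change. In the fits that leave out both arrays of 1 experiment, which were added after seeing the data and compare 2 arrays with 2, the list had 1 rise and 3 falls without experiment 2, where Cyb5a did not pass (adjusted p = 0.0517).

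Genes of mitochondrial cholesterol import and of other START proteins were also mixed. Of 18 measured 5 rose, 3 fell and 10 did not pass, with a median of -0.14. When the experiment was entered as a block, 5 fell. Acsl4, an acyl-CoA synthetase that favours arachidonic acid, rose by 1.99 ± 0.08 (limma, adjusted p = 8.23e-05). Akap1, which anchors protein kinase A at the mitochondrion, rose by 1.23 ± 0.15 (limma, adjusted p = 0.00216) and by 1.44 and 1.25 by its other probe sets. Atad3a, a mitochondrial membrane ATPase, rose by 1.17 ± 0.22 (limma, adjusted p = 0.0102). Among the falls, singled out after its values were seen, was Stard10, a phospholipid transfer protein, at -1.09 ± 0.17 (limma, adjusted p = 0.00576) and at -0.63 with its probe sets averaged. Dbi, a ligand of TSPO, was likewise singled out: it went from 12.50 ± 0.15 to 12.13 ± 0.24 (SD, n = 3), which did not pass (limma, adjusted p = 0.117). The list had 2 rises and 1 fall without both arrays of experiment 2, where Atad3a and Stard10 did not pass (adjusted p = 0.0794 and 0.0635). Without those of experiment 3 it had 1 fall.

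Of 25 measured genes of cholesterol uptake, storage and efflux, 7 fell, 3 rose and 15 did not pass, with a median of -0.14. Vldlr, a lipoprotein receptor, fell by 1.97 ± 0.45 (limma, adjusted p = 0.0210), and its 3 other probe sets gave -2.12 to -1.71. Its call did not hold when tamoxifen array 1 or 2 was left out (adjusted p = 0.0692 and 0.0733). On all 6 arrays with the experiment as a block, Vldlr had an SE of 0.23 and passed (limma, adjusted p = 0.00435). Mylip, a ubiquitin ligase that degrades lipoprotein receptors, fell by 1.81 ± 0.22 (limma, adjusted p = 0.00241), and Abca3, a lipid transporter, fell by 1.29 ± 0.22 (limma, adjusted p = 0.00740). Without tamoxifen array 1, 2 or 3 the falls were 4, 3 and 4, and leaving out any 1 array left at most 1 rise. Without both arrays of experiment 2 there were 0 rises and 3 falls, with Vldlr at an adjusted p of 0.128, and without those of experiment 3 there were 1 rise and 4 falls, with Abca3 at 0.0524. Of 14 measured LXR and SREBP regulators and targets, 2 fell and 0 rose in limma (6 and 0 at an unadjusted p of 0.05), with a median of -0.30. They were Mylip and the sterol-sensing gene Insig2, which fell by 1.17 ± 0.14 (limma, adjusted p = 0.00206). With the experiment as a block, and also without vehicle array 1, 4 fell and 1 rose, and without both arrays of experiment 1 there were 2 rises.

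Known regulators of Star transcription, most of them transcription factors, split evenly. Of 29 measured 4 rose, 4 fell and 21 did not pass, with a median of 0.05. AP-1 members differed in direction. Fosl1 and Junb rose by 3.80 ± 0.10 and 2.03 ± 0.26 (limma, adjusted p = 1.41e-05 and 0.00280), while Jun fell by 1.40 ± 0.34 (limma, adjusted p = 0.0266), and Fos and Jund gave 0.03 ± 0.21 and -0.03 ± 0.09, which did not pass. The last 3 were singled out after their values were seen. The call of Jun did not hold without vehicle array 1, 2 or 3 or tamoxifen array 2 (adjusted p = 0.0587, 0.0715, 0.0582 and 0.0625) or without both arrays of experiment 2 (0.148). The homeobox gene Dlx5 rose by 1.58 ± 0.33 (limma, adjusted p = 0.0146), which did not hold without both arrays of experiment 1 (adjusted p = 0.0785). Among those that fell, singled out after their values were seen, were Cebpa at -1.54 ± 0.25 (limma, adjusted p = 0.00605) and Gata6 at -0.87 ± 0.13 (limma, adjusted p = 0.00453). With probe sets averaged Gata6 gave -0.38, its dimmer probe set being at 0.10. Without vehicle array 1, vehicle array 3 or tamoxifen array 2 the list had 2 falls. It had 1 without both arrays of experiment 2, where Cebpa did not pass (adjusted p = 0.0708).

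Among 15 steroid receptors and cofactors 3 rose, 2 fell and 10 did not pass, with a median of -0.08. Nr3c1, the glucocorticoid receptor gene, fell by 2.12 ± 0.27 (limma, adjusted p = 0.00278) by the brighter of its probe sets, and the dimmer gave -0.70 (adjusted p = 0.154). The coactivator gene Ncoa1 fell by 1.20 ± 0.21 (limma, adjusted p = 0.00828), with -1.28 and 0.01 by its other probe sets. The chaperone gene Fkbp4 rose by 0.82 ± 0.18 (limma, adjusted p = 0.0182), which did not hold when vehicle array 2 or 3 was left out (adjusted p = 0.0558 and 0.0557). The list had 4 falls without vehicle array 1, and 1 rise without vehicle array 2, vehicle array 3 or tamoxifen array 3. Leaving out both arrays of experiment 2 gave 0 rises and 0 falls, with adjusted p of 0.0516 for Nr3c1, 0.0764 for Ncoa1 and 0.130 for Fkbp4. Without those of experiment 3 there were 0 rises and 1 fall, with 0.0580 for Ncoa1 and 0.0662 for Fkbp4.

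Of 25 measured cAMP and protein kinase A genes, the pathway by which hormones classically raise Star, 6 rose, 4 fell and 15 did not pass, with a median of 0.05. Pkia, an inhibitor of the kinase, rose by 1.20 ± 0.19 (limma, adjusted p = 0.00580), and by 0.86 and 1.21 by its other probe sets. Adcy5, an adenylyl cyclase, fell by 1.38 ± 0.26 (limma, adjusted p = 0.0103), while its other probe set gave -0.02 (adjusted p = 0.943). Prkar2b, a regulatory subunit, rose by 1.49 ± 0.41 (limma, adjusted p = 0.0407). It did not pass with any 1 of 5 arrays left out: the adjusted p was 0.0938 and 0.105 without vehicle arrays 1 and 2, and 0.0679, 0.102 and 0.129 without tamoxifen arrays 1, 2 and 3. It was also 0.125 and 0.216 without both arrays of experiments 1 and 2. On all 6 arrays with the experiment as a block, Prkar2b had an SE of 0.20 and passed (limma, adjusted p = 0.00618). Without both arrays of experiment 2 the list had 1 rise and 1 fall, with Pkia at an adjusted p of 0.0750, and without those of experiment 3 it had 1 fall, with Adcy5 at 0.0891.

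**Figure D4:**
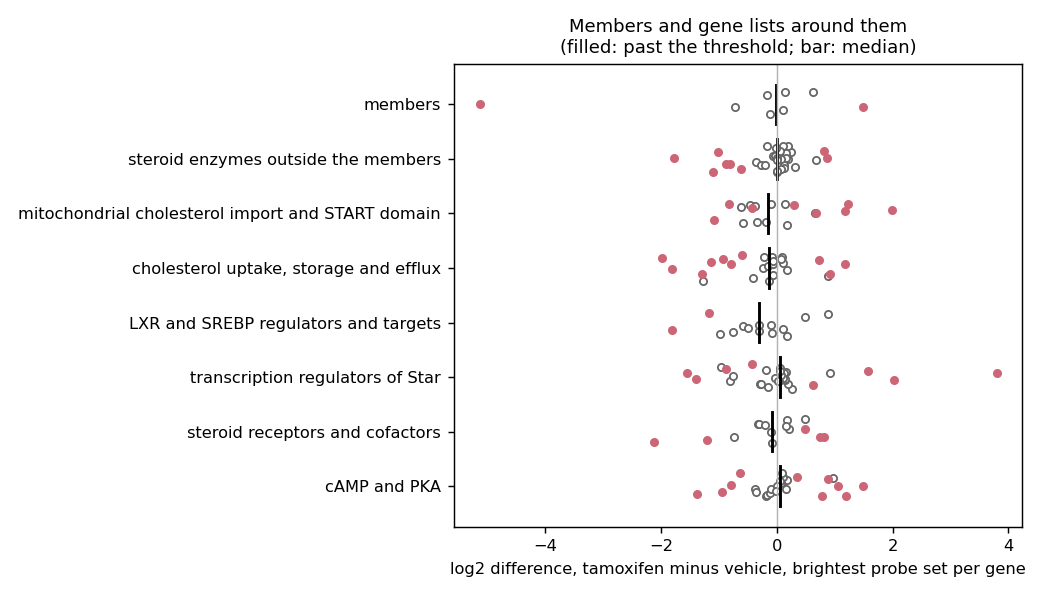
Log2 difference, tamoxifen minus vehicle (x axis), of the 8 member genes and of each measured gene of the 7 lists, 1 point per gene by its brightest probe set, filled where it passed the threshold, with a black bar at the median. Star at -5.13 lies below every point of the 7 lists, and every list holds points on both sides of 0.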

How the data were processed

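The authors deposited 1 log2 value per probe set for each of 6 arrays labelled by the Affymetrix procedure. These were made with RMA, per the submitters' processing notes. No version was stated in the sources used here. Total RNA was used, per the labels' protocols. Of 31099 probe sets 57 manufacturer controls were left out. Probe sets with 1 symbol (20826) were named from the platform annotation, while 436 with several symbols and 9780 not listed were not named. Identifiers of 20758 matched RefSeq (GRCr8).

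The 2 groups were compared in limma 3.58.1 (lmFit, eBayes; R 4.3.3) on all 6 arrays, without covariates and two-sided, and p was adjusted (Benjamini-Hochberg) over 31042 probe sets. An exact permutation test of 3 against 3 arrays was not used. Precision is limited by the number of arrays. The brightest probe set over all arrays stood for a gene. The procedure was tested on simulated data. Deviations from group means correlated at 0.26, 0.20 and 0.28 between arrays of the same experiment number, so the numbers were taken to pair the arrays. Alternatives were a block for the experiment, leaving out arrays, quantile normalization, median centring, cyclic loess, eBayes with trend and robust, a filter on dim probe sets (under 6 in both groups) and averaged probe sets. Leaving out both arrays of an experiment was added after seeing the data.

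The members and lists were chosen with earlier results of these data known. Named were all members, up to 3 called genes of the largest difference per list, and the 5 profiles nearest to Star, leaving out LOC and RGD symbols.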

Additional observations from a re-analysis of the deposited data

How the results depend on the processing

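With the experiment as a block (replicate block), 2 member genes were lower and 2 higher in place of 1 and 1, and with probe sets averaged per gene 2 were higher. Without both arrays of experiment 2, 0 were higher in limma. The share of all genes called was not taken for these fits. Leaving out any 1 array gave 1 lower and 1 higher each time. Among the members that did not pass, the signs of Fdx1, Tspo, Abca1 and Apoe were less stable. Those of Stard4 and Cyp11a1 held in every fit that included them. The difference of Fdx1 was -0.057 with its probe sets averaged, -0.020 to 0.31 over arrays left out and -0.051 without both arrays of experiment 2. That of Tspo was -0.44 to 0.25 over arrays left out and 0.33 without both arrays of experiment 3. Abca1 gave -0.31 to 0.062 and Apoe -1.43 to 0.058 over arrays left out. The positive value of Apoe was that without vehicle array 3, with the tamoxifen array of that experiment kept. No other fit gave a positive value for its brighter probe set. Within the experiments its change was -0.61, -0.68 and -0.88. The Abca1 probe set 1382431_at gave 0.014 with quantile normalization, 0.051 with cyclic loess, -0.28 to 0.25 over arrays left out and 0.37 without both arrays of experiment 2. The Abca1 probe set 1394490_at gave -0.52 to 0.24 and 0.27. The dimmer probe set of Apoe gave -0.14 to 0.044 and that of Fdx1 -0.34 to 0.0038 over arrays left out. Outside the members, Fos gave -0.0079 with arrays centred on their median, -0.16 to 0.26 over arrays left out and -0.10 without both arrays of experiment 1. Jund gave 0.039 with probe sets averaged, -0.090 to 0.041 over arrays left out and 0.030 without both arrays of experiment 2. The cause was not tested. The filter on dim probe sets removed Cyp11a1. With 3 arrays a group, and without the block, differences of the size seen for Tspo or Apoe lie within the spread between arrays. The block changed no other call among the named genes for which it was checked. It was not checked for marker genes other than Nr5a1 or for enzymes named only for their level.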
